A study of Homo sapiens with 12 samples.

Results

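Messenger RNA of 10 genes that make, break down or regulate polyamines was followed across 12 Affymetrix expression arrays of LNCaP, an established line of human prostate cancer that responds to androgen. The genes are ODC1, AMD1, SRM, SMS, SAT1, PAOX, SMOX, AZIN1, OAZ1 and OAZ2, and every probe set that the platform annotation assigns to a single one of these symbols was taken, which gave 22 of the 54675 probe sets on the array (10 genes of 19775 with a probe set of their own). A further probe set annotated to both ZSWIM8 and SAT1 was left out, and it stayed between 2.40 and 2.57 on the log2 scale on all 12 arrays. There were 4 groups of 3 arrays, from each combination of siRNA and hormone treatment. The groups were cells transfected with siRNA against serum response factor (SRF) and given R1881, a synthetic androgen, the same SRF-silenced cells given ethanol vehicle, cells transfected with control siRNA and given R1881, and control siRNA cells given ethanol vehicle. All 4 groups were first kept without androgen for 48 h. Treatment with 5 nM R1881 or vehicle began 42 h after transfection and lasted 48 h. The labels name biological replicates but do not state separate cultures, and p-values therefore reflect the spread among the arrays of a group. Silencing was transient, all cells were of 1 line, and RNA from a whole culture cannot tell a change in every cell from a change in the share of cells that express a gene.

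Polyamines are small positively charged molecules that bind nucleic acids and are needed for growth, and the prostate epithelium is known for secreting large amounts of spermine. Ornithine decarboxylase (ODC1) makes putrescine, adenosylmethionine decarboxylase (AMD1) makes the donor of the aminopropyl group, spermidine synthase (SRM) turns putrescine into spermidine, and spermine synthase (SMS) turns spermidine into spermine. Breakdown begins with spermidine/spermine acetyltransferase (SAT1), whose products are exported or oxidised by PAOX, while SMOX oxidises spermine directly. The antizymes OAZ1 and OAZ2 bind ODC1 and deliver it to the proteasome, and the antizyme inhibitor AZIN1 binds antizyme and thereby frees ODC1.

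Under R1881 the transcripts of ODC1, AMD1, SMS and SAT1 were higher with and without SRF silencing. Transcripts of the first and last enzymes of spermine synthesis and the supplier of aminopropyl groups thus rose with that of the acetyltransferase of breakdown. SRM did not follow them: it fell with R1881 in control cells, was not called in silenced cells, and the effects differed by the test. SRF silencing raised AMD1 and lowered OAZ2 and SAT1 213988_s_at in both treatments. AZIN1 was lower on 1 of its 3 probe sets in R1881 and on 2 in vehicle. SMS was lower after silencing in R1881 and was not called in vehicle, and ODC1 was called in neither. Signals of SMOX and of most PAOX probe sets lay near the array background.

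The stretches of 250 bases before the transcript start are shown for SMS, ODC1 and SAT1, the genes that followed R1881 most closely, and for AMD1 and SRM, the synthesis genes that did not follow it alone. They come from RefSeq on GRCh38.p14, where 7 of the 10 genes had an entry. The first start listed for each gene was used. They lie at chrX:21940459-21940708 on the plus strand for SMS, at chr2:10448328-10448577 on the minus strand for ODC1, at chrX:23782923-23783172 on the plus strand for SAT1, at chr6:110874535-110874784 on the plus strand for AMD1 and at chr1:11060019-11060268 on the minus strand for SRM. Capitals mark matches to the motifs searched, described after the sequences.
SMS: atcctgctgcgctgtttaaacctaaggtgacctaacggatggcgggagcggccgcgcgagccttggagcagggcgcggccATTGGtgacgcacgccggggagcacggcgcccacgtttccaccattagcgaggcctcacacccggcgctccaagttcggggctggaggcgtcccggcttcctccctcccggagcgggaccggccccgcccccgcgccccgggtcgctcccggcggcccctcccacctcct
ODC1: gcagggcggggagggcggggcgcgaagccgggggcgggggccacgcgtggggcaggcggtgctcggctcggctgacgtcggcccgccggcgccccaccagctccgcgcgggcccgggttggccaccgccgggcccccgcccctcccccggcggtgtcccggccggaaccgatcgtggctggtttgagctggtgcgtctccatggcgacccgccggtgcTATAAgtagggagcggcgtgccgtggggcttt
SAT1: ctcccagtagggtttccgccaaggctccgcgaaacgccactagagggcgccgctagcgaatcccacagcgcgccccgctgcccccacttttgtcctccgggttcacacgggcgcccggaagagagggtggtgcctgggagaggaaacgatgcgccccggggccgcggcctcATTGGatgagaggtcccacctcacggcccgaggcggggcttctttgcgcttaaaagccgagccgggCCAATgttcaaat
AMD1: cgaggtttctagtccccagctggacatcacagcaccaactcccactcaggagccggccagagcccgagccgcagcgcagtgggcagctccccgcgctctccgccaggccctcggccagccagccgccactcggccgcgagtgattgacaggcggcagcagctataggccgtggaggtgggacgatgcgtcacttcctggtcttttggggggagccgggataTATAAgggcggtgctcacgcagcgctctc
SRM: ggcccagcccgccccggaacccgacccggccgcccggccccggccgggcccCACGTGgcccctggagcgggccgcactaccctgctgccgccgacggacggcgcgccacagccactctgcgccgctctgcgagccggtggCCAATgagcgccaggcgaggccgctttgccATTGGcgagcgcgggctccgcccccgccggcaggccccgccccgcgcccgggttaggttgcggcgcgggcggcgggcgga

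A set of 5 motifs was searched on both strands of these 250 bases. They were CACGTG, the E-box that MYC and related factors bind, TATAA, which reads TTATA on the other strand, CCAAT, which reads ATTGG there, and AGAACA, which reads TGTTCT there and is a half-site of the androgen response element, together with the CArG box, the SRF site. Matches did not overlap each other. TATAA began 32 bases before the ODC1 start and 29 bases before the AMD1 start, and 18.9% of all 35116 windows of this length in the table held it. CCAAT was found once in the SMS window and 2 times each in the SAT1, SRM and OAZ1 windows. It was also found once in the window of a second AMD1 start, 21 bases before it. Of all windows 32.0% had at least 1 CCAAT match. CACGTG was found once in the SRM window, 199 bases before the start, and once in the window of a second ODC1 start, 29 bases before it, and 6.34% of all windows held it. AGAACA and the CArG box, held by 12.4% and 1.16% of all windows, were in none of the listed windows of ODC1, AMD1, SRM, SMS, SAT1, OAZ1 and OAZ2, which says only that these letters are absent there.

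A probe set was kept for testing when at least 3 of the 12 arrays gave a log2 signal over 4, and 19 of the 22 polyamine probe sets passed, among 21526 kept in all. The 3 that did not pass were PAOX 221941_at, at 2.54 to 2.81, and SMOX 1555680_a_at and 217074_at, at 2.78 to 2.89 and 3.01 to 3.46. Differences are log2 changes from a limma fit of the 4 groups over all kept probe sets, SE is the moderated standard error, and a probe set was called at a Benjamini-Hochberg adjusted p under 0.05 over the 21526. SRF itself was at 4.87 ± 0.13 in silenced cells and 6.30 ± 0.18 in control cells under R1881 (log2, SD, n = 3 each), a change of -1.44 that left 36.9% of the signal. In vehicle it was at 4.74 ± 0.28 in silenced and 6.07 ± 0.14 in control cells (SD, n = 3 each), which left 39.5%. This rests on 1 probe set, since the other SRF probe set lay at the background. The 6 luminal prostate markers analysed (KLK2, KLK3, FOLH1, HOXB13, KRT8, KRT18) were above 4 on every array, while none of the 4 leukocyte markers analysed was kept. Of 6 fibroblast markers 2 were kept, and the summed linear signal of the 6 was 89.0 to 106 in silenced cells with R1881, 282 to 341 in silenced cells with vehicle, 95.3 to 116 in control cells with R1881 and 153 to 187 in control cells with vehicle. It followed COL3A1, while COL1A2, DCN, LUM and PDGFRA were not kept, and its part in the results was not tested. The basal marker KRT5 did not exceed 1.96, and the mesenchymal marker VIM averaged 8.25 in silenced and 6.31 in control cells under R1881, and 7.74 in silenced and 6.76 in control cells in vehicle. The summed linear signal of the 3 basal or mesenchymal markers analysed was 280 to 354 in silenced and 87.0 to 91.4 in control cells under R1881. In vehicle it was 213 to 231 in silenced and 114 to 125 in control cells. This sum was higher after silencing in both treatments, and with R1881 it was higher in silenced and lower in control cells. Its part in the results was not tested.

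GAPDH has control probe sets toward its 3-prime and 5-prime ends, and the first minus the second, a sign of RNA integrity, was 0.37, 0.45 and 0.64 in silenced cells with R1881, 0.37, 0.32 and 0.39 in silenced cells with vehicle, 0.45, 0.45 and 0.49 in control cells with R1881 and 0.07, 0.24 and 0.11 in control cells with vehicle (log2). The control R1881 and control vehicle arrays did not overlap in it (two-sided exact permutation test, p = 0.1, the lowest value possible with 3 arrays a side). Silenced and control arrays in vehicle did not overlap in it either (two-sided exact permutation test, p = 0.1). As a covariate this measure changed 8 calls among the polyamine probe sets. It ended the calls for the difference of R1881 effects on AMD1 201197_at, SAT1 210592_s_at (0.43, limma adjusted p = 0.0657) and AZIN1 212461_at (0.35, limma adjusted p = 0.0900). It added that for AMD1 201196_s_at (-0.47, limma adjusted p = 0.0254). The changes on AZIN1 201772_at and OAZ2 201365_at are given with those genes.

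**Figure D1:**
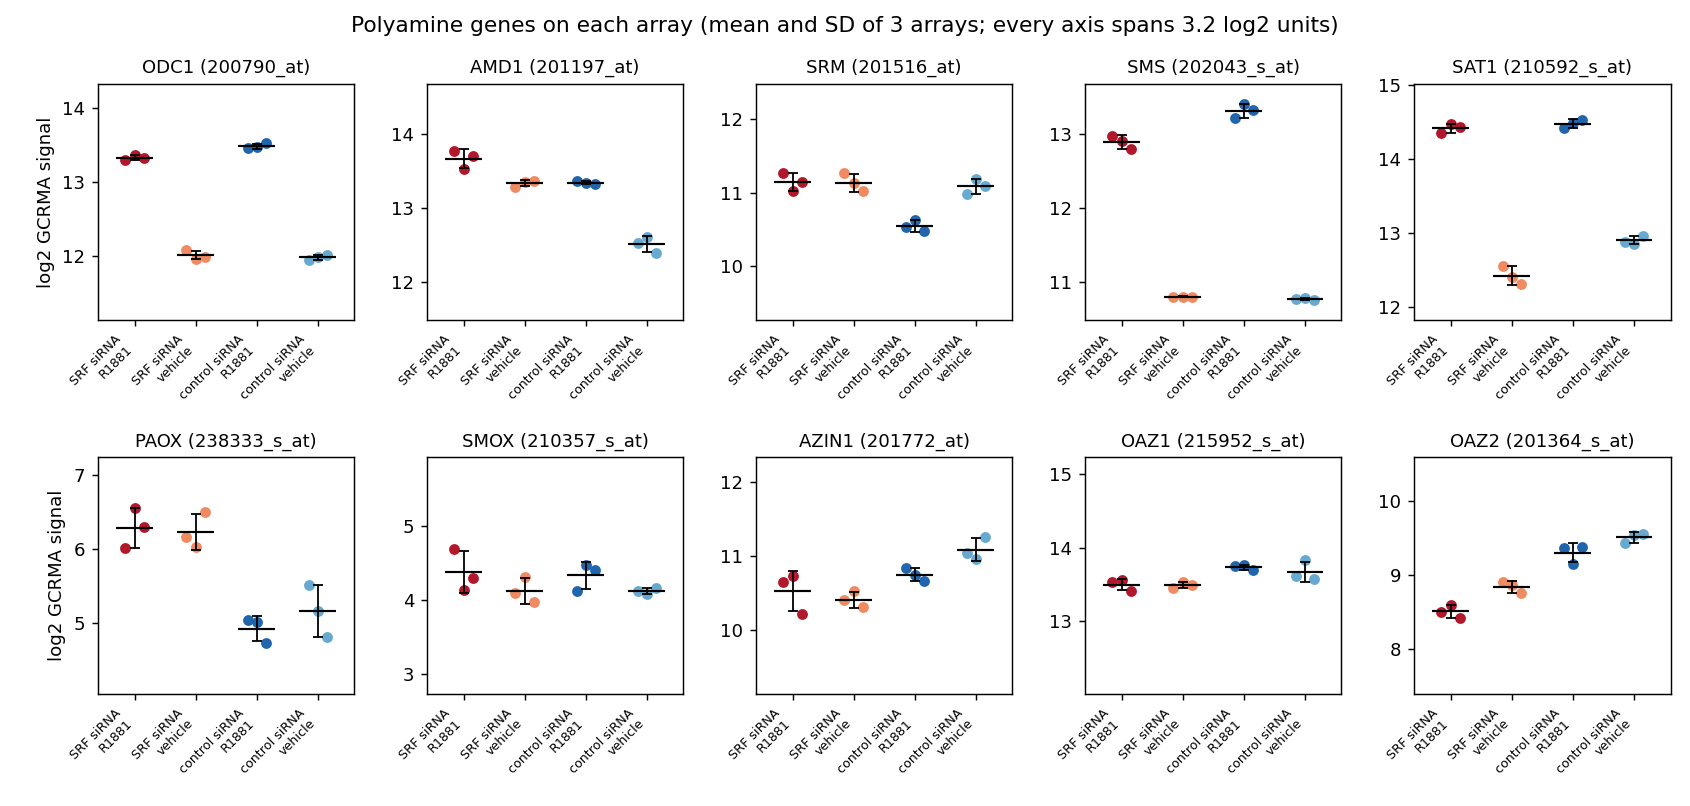
Log2 GCRMA signal of the brightest probe set of each polyamine gene on the 12 arrays, by group; points are arrays, horizontal lines the group means and bars the SD of 3 arrays. ODC1, SMS and SAT1 separate by R1881, PAOX and OAZ2 by siRNA, and in AMD1 only the control vehicle arrays are low.

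SMS, the last enzyme of spermine synthesis, had the largest R1881 response among these genes in control cells. Its log2 signal was 12.98, 12.91 and 12.79 in silenced cells with R1881, against 10.80, 10.79 and 10.80 with vehicle. The control cells gave 13.22, 13.41 and 13.32 with R1881, against 10.77, 10.77 and 10.76 with vehicle. The R1881 and vehicle arrays were thus far apart under either siRNA, and the 6 vehicle arrays lay close together. The log2 change was 2.10 ± 0.07 in silenced cells (4.28-fold, limma adjusted p = 1.19e-09) and 2.55 ± 0.07 in control cells (5.87-fold, limma adjusted p = 2.11e-10), with SE. Among all kept probe sets, 98.2% changed less than SMS in control cells. The smaller response of silenced cells was a difference of -0.46 ± 0.11 (SE, limma adjusted p = 0.0115), and under R1881 the silenced cells were lower by the test, at -0.42 ± 0.07 (SE, adjusted p = 0.000524).

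ODC1, the first enzyme of the pathway, rose with R1881 under both siRNAs. Its single probe set gave 13.30, 13.37 and 13.32 in silenced cells with R1881, against 12.07, 11.96 and 11.99 with vehicle. In control cells the values were 13.46, 13.47 and 13.52 with R1881, against 11.94, 11.99 and 12.01 with vehicle. No R1881 array overlapped a vehicle array. The log2 change was 1.32 ± 0.07 in silenced cells (2.50-fold, limma adjusted p = 1.76e-08) and 1.50 ± 0.07 in control cells (2.84-fold, limma adjusted p = 4.63e-09), with SE. The difference of these effects did not pass, at -0.18 with a 95% interval of -0.39 to 0.02. In R1881 the SRF siRNA effect on ODC1 was -0.16 ± 0.07 (SE, adjusted p = 0.0656, with 0.00875 to 0.314 over the alternatives run), while in vehicle it was 0.03 with a 95% interval of -0.11 to 0.17.

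SAT1, which acetylates spermidine and spermine, was measured by 3 probe sets and all of them rose with R1881. The brightest, 210592_s_at, read 14.35, 14.47 and 14.43 in silenced cells with R1881, against 12.56, 12.40 and 12.31 with vehicle. In control cells it read 14.41, 14.49 and 14.53 with R1881, against 12.88, 12.85 and 12.96 with vehicle. The 6 R1881 arrays lay close together, and the lowest values were those of silenced cells in vehicle. Its log2 change was 1.99 ± 0.08 in silenced and 1.58 ± 0.08 in control cells (SE; limma adjusted p = 3.49e-09 and 1.69e-08). Probe set 213988_s_at changed by 2.30 ± 0.08 in silenced and 1.95 ± 0.08 in control cells, and 203455_s_at by 1.52 ± 0.11 and 1.51 ± 0.11, all called. SRF silencing lowered 2 of the 3 in vehicle, 210592_s_at by -0.48 ± 0.08 and 213988_s_at by -0.67 ± 0.08 (SE; adjusted p = 0.000466 and 4.32e-05). The remaining probe set, 203455_s_at, was at -0.22 ± 0.11 (adjusted p = 0.104), and at -0.34 without control vehicle array 3 (adjusted p = 0.0117). In R1881 only 213988_s_at was called for silencing, at -0.32 ± 0.08 (SE, adjusted p = 0.00632), with 203455_s_at at -0.22 and 210592_s_at at -0.06.

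AMD1, the decarboxylase that supplies aminopropyl groups to SRM and SMS, responded to both R1881 and SRF silencing. Its brighter probe set, 201197_at, read 13.77, 13.53 and 13.71 in silenced cells with R1881, against 13.29, 13.36 and 13.37 with vehicle. In control cells it read 13.37, 13.34 and 13.33 with R1881, against 12.53, 12.61 and 12.40 with vehicle. The control vehicle arrays were the lowest by a wide margin, and the silenced vehicle arrays overlapped the control R1881 arrays. R1881 changed it by 0.33 ± 0.08 in silenced cells and 0.83 ± 0.08 in control cells (SE; limma adjusted p = 0.00659 and 5.07e-06). The second probe set, 201196_s_at, changed by 0.27 ± 0.08 and 0.61 ± 0.08 (SE; limma adjusted p = 0.0160 and 4.29e-05), and the first of these calls was lost without silenced R1881 array 1 (0.24) or array 2 (0.23). SRF silencing raised 201197_at by 0.33 ± 0.08 in R1881 and 0.83 ± 0.08 in vehicle, and 201196_s_at by 0.64 ± 0.08 and 0.99 ± 0.08, all called. For 201197_at the R1881 effect was smaller in silenced cells by -0.50 ± 0.12 (SE, adjusted p = 0.0121). That call was lost after quantile normalization (-0.30, adjusted p = 0.114), and with the GAPDH measure as a covariate it stood at -0.47 (adjusted p = 0.0514).

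SRM, the spermidine synthase, fell with R1881 in control cells, where ODC1, AMD1 and SMS rose. It read 11.27, 11.02 and 11.15 in silenced cells with R1881, against 11.26, 11.13 and 11.02 with vehicle. In control cells it read 10.53, 10.63 and 10.48 with R1881, against 10.98, 11.18 and 11.10 with vehicle. The 3 control R1881 arrays were below the other 9, which overlapped one another. The log2 change with R1881 was 0.01 ± 0.09 in silenced cells (95% interval -0.20 to 0.22) and -0.54 ± 0.09 in control cells (SE, limma adjusted p = 0.000445). The difference of these effects was 0.55 ± 0.13 (SE, adjusted p = 0.0144). Silencing changed SRM by 0.60 ± 0.09 in R1881 (SE, adjusted p = 0.000223) and by 0.05 ± 0.09 in vehicle.

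**Figure D2:**
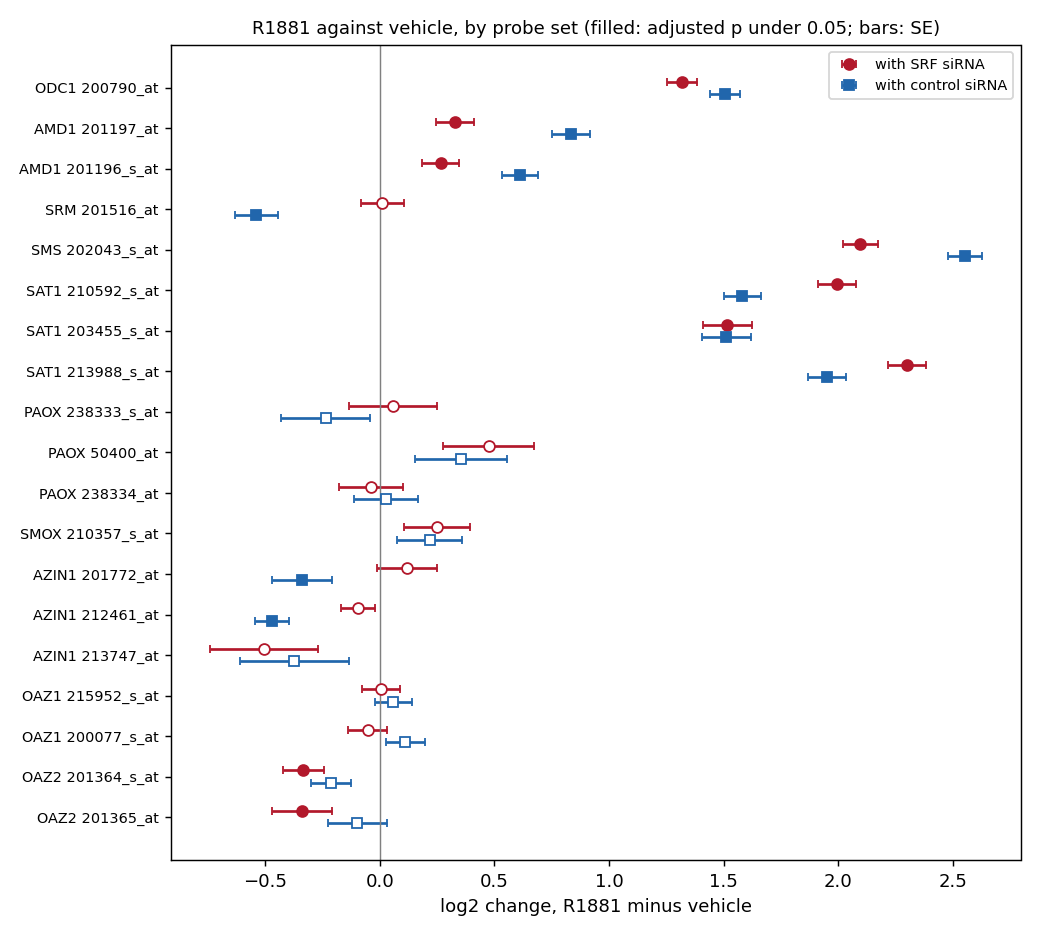
Log2 change with R1881 against vehicle for the 19 kept polyamine probe sets, in SRF-silenced cells (circles) and control cells (squares); bars are SE and filled symbols passed at an adjusted p under 0.05. SMS, ODC1 and the 3 SAT1 probe sets lie between 1.32 and 2.55. In control cells SRM, AZIN1, OAZ2 and PAOX 238333_s_at lie below 0, called for SRM and for AZIN1 212461_at and 201772_at.

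In all, R1881 called 7 of the 19 kept polyamine probe sets higher and 2 lower in silenced cells. Of all kept probe sets 47.5% were called there (20.8% higher, 26.7% lower). In control cells R1881 called 7 of the 19 higher and 3 lower, where 55.8% of all were called (24.0% higher, 31.8% lower). The 7 were the same in both states: those of ODC1, SMS, AMD1 and SAT1, of which the ODC1, SMS and SAT1 probe sets passed 2-fold in both. At 2-fold or more in either direction R1881 called 10.6% of all kept probe sets in silenced and 14.7% in control cells. None of the 19 was called lower at 2-fold, and the share of all called higher at 2-fold was not counted. The median change over the 19 kept polyamine probe sets was 0.12 in silenced and 0.11 in control cells, against -0.06 and -0.07 over all kept probe sets. After quantile normalization the split in silenced cells was 8 higher and 1 lower.

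Among the regulators of ODC1, R1881 lowered AZIN1 in control cells. AZIN1, the antizyme inhibitor, read 10.02, 10.04 and 10.03 on probe set 212461_at in silenced cells with R1881, against 10.19, 10.09 and 10.09 with vehicle. In control cells it read 10.33, 10.34 and 10.41 with R1881, against 10.82, 10.73 and 10.94 with vehicle. The control vehicle arrays were highest and did not overlap any other group. R1881 changed it by -0.09 ± 0.07 in silenced and -0.47 ± 0.07 in control cells (SE; limma adjusted p = 0.320 and 0.000190), a difference of 0.38 ± 0.10 (adjusted p = 0.0268). On 201772_at the change in control cells was -0.34 ± 0.13 (adjusted p = 0.0445), and with the GAPDH measure as a covariate it was 0.16 (adjusted p = 0.526), while that in silenced cells was 0.32 (adjusted p = 0.0426), against 0.12 without it. That call was also lost when control vehicle array 1 or 3, any control R1881 array or any silenced vehicle array was left out, at an adjusted p of up to 0.526 over all alternatives. The dim probe set 213747_at was at -0.50 ± 0.24 in silenced and -0.37 ± 0.24 in control cells, and silenced R1881 array 3, which also had the highest GAPDH measure, stood at 3.27 beside 4.25 and 4.53. Its change in silenced cells ran from -0.76 to -0.13 over the alternatives. The change of 213747_at in control cells ran from -0.42 to 0.53 over the alternatives, at an adjusted p of up to 0.482. Only 3 of them called it, among them values under 4 set to 4 (adjusted p = 0.0149) and without silenced R1881 array 3 (adjusted p = 0.00403).

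OAZ2, an antizyme, was lower with R1881 in silenced cells by the test. Probe set 201364_s_at read 8.51, 8.60 and 8.43 in silenced cells with R1881, against 8.91, 8.86 and 8.76 with vehicle. In control cells it read 9.37, 9.15 and 9.38 with R1881, against 9.43, 9.55 and 9.56 with vehicle. All 6 silenced arrays lay below all 6 control arrays. The R1881 change was -0.33 ± 0.09 in silenced and -0.21 ± 0.09 in control cells (SE; limma adjusted p = 0.00820 and 0.0566). The change in control cells was called under 5 alternatives, with an adjusted p down to 0.0322, and the difference of effects was -0.12 with a 95% interval of -0.39 to 0.15. On 201365_at the change in silenced cells was -0.34 ± 0.13 (adjusted p = 0.0498), a call that 11 of the 12 omissions of an array ended, all but that of silenced R1881 array 3, without which it was -0.55. In control cells 201365_at was at -0.10 (adjusted p = 0.554), and at -0.63 with the GAPDH measure as a covariate (adjusted p = 0.0142). OAZ1, the other antizyme, was not called for R1881 on either probe set, with changes of -0.05 and 0.01 in silenced and 0.11 and 0.06 in control cells. Quantile normalization, which gave 0.25 and 0.24 in control cells, called both OAZ1 probe sets there.

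SRF silencing lowered both antizyme OAZ2 probe sets and AZIN1 in both treatments, AZIN1 on 212461_at. OAZ2 fell by 0.79 ± 0.09 on the log2 scale in R1881 and by 0.67 ± 0.09 in vehicle on 201364_s_at (SE; limma adjusted p = 1.48e-05 and 6.42e-05). The second OAZ2 probe set, 201365_at, was 0.50-fold in R1881 (adjusted p = 5.25e-05) and changed by -0.76 ± 0.13 in vehicle (SE, adjusted p = 0.000495). AZIN1 212461_at changed by -0.33 ± 0.07 in R1881 and -0.71 ± 0.07 in vehicle (SE; adjusted p = 0.00253 and 1.18e-05). In R1881 AZIN1 201772_at was at -0.22 ± 0.13 (SE, adjusted p = 0.178), not called. The dim AZIN1 213747_at was at -0.51 ± 0.24 in R1881 and -0.38 ± 0.24 in vehicle (SE), called in neither. AZIN1 201772_at was called in vehicle, at -0.68 ± 0.13 (adjusted p = 0.00111), but not with the GAPDH measure as a covariate (-0.34, adjusted p = 0.0879). In vehicle that measure averaged 0.36 in silenced and 0.14 in control cells. OAZ1 was at -0.23 ± 0.08 and -0.22 ± 0.08 in R1881 on its 2 probe sets (SE; adjusted p = 0.0306 and 0.0480), calls that leaving out any single control R1881 array ended.

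PAOX, the oxidase of acetylated polyamines, was called for silencing on 1 of its 4 probe sets. Probe set 238333_s_at read 6.01, 6.56 and 6.30 in silenced cells with R1881, against 5.04, 5.01 and 4.73 in control cells with R1881. In vehicle it read 6.16, 6.03 and 6.50 in silenced cells, against 5.51, 5.17 and 4.81 in control cells. The siRNA groups did not overlap under either treatment. The change was 1.36 ± 0.19 in R1881 (2.57-fold) and 1.07 ± 0.19 in vehicle (2.10-fold), with SE (limma adjusted p = 9.84e-05 and 0.000691). Of the other PAOX probe sets, 50400_at was at 0.08 and -0.04 in the same comparisons, not called, and 221941_at was too dim to test. Probe set 238334_at was above 4 only on silenced arrays and passed the filter through them, so no size of change is given. It was called in neither comparison. The rise of PAOX thus rests on 1 probe set. SMOX, the spermine oxidase, was tested on 210357_s_at alone, which read 3.97 to 4.69 over all 12 arrays and was called in no comparison. Its R1881 change was 0.25 ± 0.14 in silenced and 0.22 ± 0.14 in control cells (SE).

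**Figure D3:**
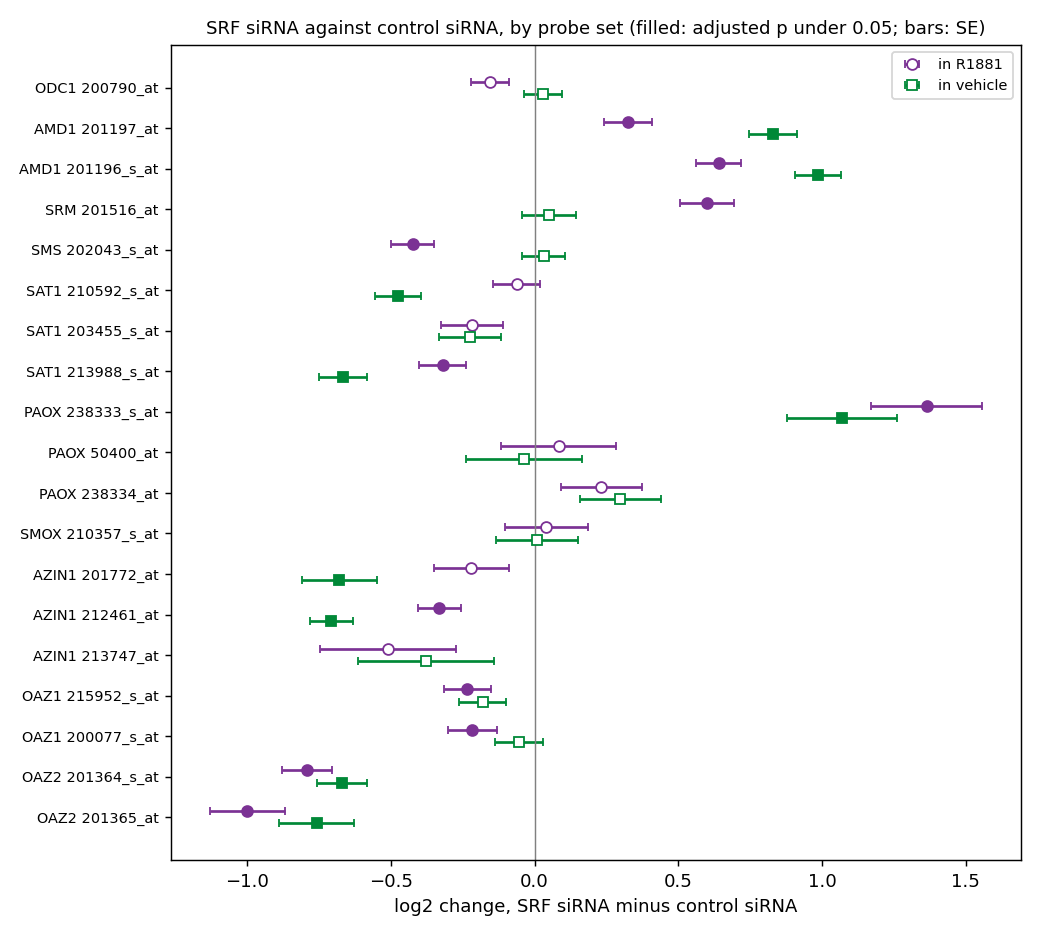
Log2 change with SRF siRNA against control siRNA for the 19 kept polyamine probe sets, in R1881 (circles) and in vehicle (squares); bars are SE and filled symbols passed at an adjusted p under 0.05. AMD1 and PAOX 238333_s_at lie above 0, both OAZ2 probe sets lie at -0.67 or lower, and ODC1 is at -0.16 in R1881 and 0.03 in vehicle.

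Silencing called 4 of the 19 kept polyamine probe sets higher and 7 lower in R1881. Of all kept probe sets 53.1% were called there (29.0% higher, 24.2% lower). In vehicle silencing called 3 of the 19 higher and 6 lower, where 49.1% of all were called (26.4% higher, 22.7% lower). Both AMD1 probe sets and PAOX 238333_s_at were higher in both treatments, and 4 were lower in both: the OAZ2 pair, AZIN1 212461_at and SAT1 213988_s_at. Over the 19 kept the median change was -0.22 in R1881 and -0.05 in vehicle, against 0.04 and 0.03 over all kept probe sets. Among the 19 tested, 11 were called in R1881 and 9 in vehicle.

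The R1881 effect differed between the siRNAs for 5 of the 19 kept polyamine probe sets. Of all kept probe sets 18.6% were called (9.79% higher, 8.84% lower). The R1881 effect was higher in silenced cells for SRM, SAT1 210592_s_at and AZIN1 212461_at and lower for SMS and AMD1 201197_at. After quantile normalization 4 were higher and 1 lower. The number was 3 without control vehicle array 3, control R1881 array 1 or 2, silenced vehicle array 2 or 3, or silenced R1881 array 2, each time with SAT1 and AZIN1 lost, and 7 without silenced R1881 array 3. SAT1 210592_s_at differed by 0.41 ± 0.11 (SE, limma adjusted p = 0.0272), while 213988_s_at was at 0.35 ± 0.12 (adjusted p = 0.0590) and 203455_s_at at 0.01 ± 0.15 (adjusted p = 0.986).

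**Figure D4:**
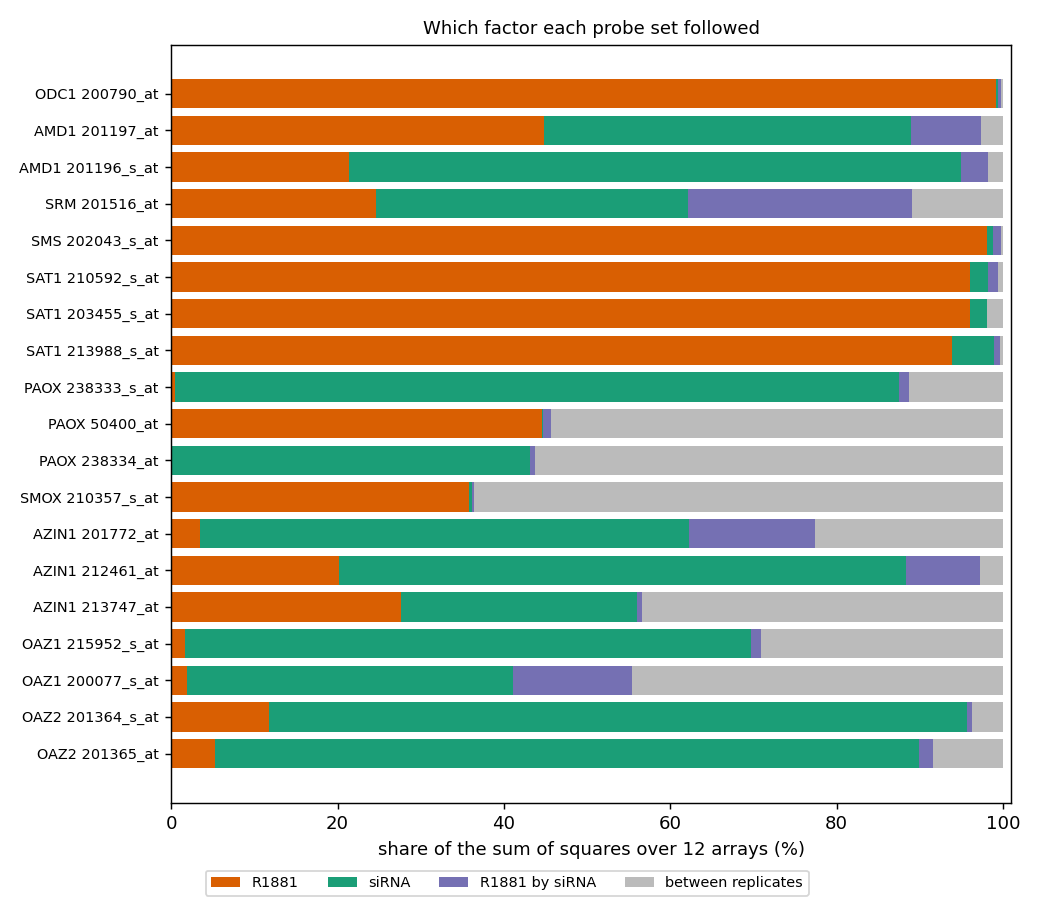
Share of the sum of squares over the 12 arrays that falls to R1881, siRNA, their interaction and the spread between replicates, in percent, for the 19 kept polyamine probe sets. ODC1, SMS and SAT1 are nearly all R1881, OAZ2 and PAOX 238333_s_at mostly siRNA, and SRM is split.

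The variation of each gene over the 12 arrays followed different factors. R1881 held 99.2% of the sum of squares of ODC1, 98.1% of that of SMS and 93.9% to 96.0% of that of the SAT1 probe sets, against a median of 29.7% over all kept probe sets. siRNA held 84.0% and 84.7% for OAZ2 and 87.0% for PAOX 238333_s_at, against a median of 26.9%. AMD1 201197_at was divided, with 44.8% for R1881 and 44.2% for siRNA, while AMD1 201196_s_at had 21.4% for R1881 and 73.5% for siRNA. For SRM the parts were 24.7% for R1881, 37.5% for siRNA and 26.8% for their interaction, whose median over all kept probe sets was 3.59%. The spread between replicates held 63.7% for SMOX 210357_s_at and 54.3% to 56.2% for the dimmer PAOX probe sets 50400_at and 238334_at. The order of the 4 groups for SMS was control R1881, silenced R1881, then both vehicle groups, which differed by 0.03.

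Genes with the profile most like each responsive member were found by the root mean square difference of centred log2 values over the 12 arrays. For ODC1 they were SCD, the stearoyl-CoA desaturase, at 0.06, IDI1 of isoprenoid synthesis at 0.06, and DNM1L at 0.07. SCD averaged 13.19 in silenced cells with R1881, 11.91 in silenced cells with vehicle, 13.40 in control cells with R1881 and 11.93 in control cells with vehicle. Nearest to SMS were BICD2 at 0.12, the transporter gene ABCC4 at 0.12 and LONRF1 at 0.13. Those nearest to SAT1 210592_s_at were the laminin gene LAMC1 at 0.09, CDYL2 at 0.14 and LPAR3 at 0.15. AMD1 201197_at was closest to the zinc exporter gene SLC30A1 at 0.09, SLC35A3 at 0.09 and RNF4 at 0.11. These are descriptions of 12 arrays in 4 groups, with no test.

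Of 26 other genes that supply, salvage, use or move polyamines and their precursors, 22 were tested, each on its brightest kept probe set. R1881 called 8 higher and 4 lower in silenced cells and 9 higher and 2 lower in control cells, where 47.5% and 55.8% of all kept probe sets were called. Silencing called 5 higher and 7 lower in R1881 and 5 higher and 6 lower in vehicle, where 53.1% and 49.1% of all were called. The total numbers called are near the background. By direction, R1881 called 20.8% of all kept probe sets higher and 26.7% lower in silenced cells. In control cells R1881 called 24.0% of all higher and 31.8% lower. The list was not tested as a set. Its genes entered by their brightest kept probe set, while the background holds every kept probe set. The counts include ARG1 and SLC18B1, which passed the filter through groups where they were high. A difference of R1881 effects was called for 2 genes, both lower, where 18.6% of all were called. ARG1, among the 2, passed the filter through control cells with R1881, so nothing is read from its call. The medians with R1881 were 0.27 in silenced and 0.21 in control cells, against -0.06 and -0.07 over all kept probe sets.

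OAT, the aminotransferase that links ornithine to glutamate and proline, was at 8.63 ± 0.22 in silenced cells with R1881, against 6.88 ± 0.04 with vehicle, and at 7.41 ± 0.13 in control cells with R1881, against 5.39 ± 0.19 with vehicle (log2, SD, n = 3 each). R1881 raised it by 1.75 ± 0.13 and 2.03 ± 0.13, and silencing by 1.22 ± 0.13 in R1881 and 1.50 ± 0.13 in vehicle (SE, all called). ARG1, an arginase that makes ornithine, was at 3.88 in silenced cells with R1881, against 2.89 with vehicle, and at 5.59 in control cells with R1881, against 3.22 with vehicle. Of these means, those of 3 groups were under 4, so it passed the filter through control cells with R1881, where it had to be high, and no size of change is given. MTAP, which cleaves the by-product of SRM and SMS, was at 5.61 in silenced and 4.13 in control cells with R1881. With vehicle MTAP was at 5.28 in silenced and 3.88 in control cells. It was higher after silencing by 1.48 ± 0.15 in R1881 and 1.40 ± 0.15 in vehicle, and was not called for R1881. The MTAP means of control cells lay near the background, so these sizes depend on the background estimate. ATP13A3, a polyamine transport ATPase, was higher after silencing by 1.99 ± 0.12 in R1881 and 1.64 ± 0.12 in vehicle, also with no R1881 call. SLC18B1, a vesicular polyamine transporter, was at 2.90 in silenced cells with R1881, against 5.20 with vehicle, and at 2.71 in control cells with R1881, against 5.34 with vehicle. The R1881 means lay at the background and it passed the filter through the vehicle groups, so no size of change is given. OAZ3, an antizyme known from testis, rose with R1881 by 0.95 ± 0.08 in silenced and 0.99 ± 0.08 in control cells, and was lower after silencing, at -1.22 ± 0.08 in R1881 and -1.18 ± 0.08 in vehicle. EIF5A, which carries the spermidine-derived residue hypusine, fell short of 2-fold and was added after its values were seen. It was lower with R1881 by the test, at -0.33 in silenced and -0.40 in control cells (limma adjusted p = 0.0365 and 0.0120). Of the 4 genes of hypusine formation, EIF5A among them, R1881 called 1 lower and none higher in silenced cells. In control cells R1881 called 2 of the 4 higher and 1 lower.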

How the data were processed

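Biotinylated cRNA from 3.5 µg of total RNA per sample was hybridised to Affymetrix expression arrays, per the labels' protocols. The deposited values are log2 signals, 1 per probe set and array, made by the authors with GCRMA per the submitters' processing notes, with no version given. GCRMA estimates the background of each probe from its sequence, so sizes of change near values of 2 to 4 depend on that estimate. Array medians ran from 2.97 to 3.06 and 37.3% to 38.0% of probe sets were above 4. The number of arrays limits the precision. Only this value table was analysed.

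Groups of the 12 columns come from the sample labels. The 62 control probe sets were left out of the tests, and no further normalization was applied. Symbols came from the platform annotation (41091 probe sets with 1 symbol, 41037 matched to RefSeq by gene number). Each probe set was fitted with 4 group means in limma 3.58.1 (R 4.3.3), using moderated variances, and p-values were adjusted by Benjamini-Hochberg over 21526 probe sets, and every adjusted p is from this fit unless an alternative is named. It was tested on simulated data. Probe sets whose names end in _s_at or _x_at can match several transcripts. Named were all members, SRF, the other pathway genes called at 2-fold in any comparison (EIF5A was added after its values were seen), and the 3 nearest profiles of 4 members. The members and lists were chosen with earlier results of these data known. Alternatives changed the filter, a floor, the scaling, the probe set per gene, the variance trend, which arrays entered a fit, a replicate block, a GAPDH covariate, and left out each array. Plots came from matplotlib 3.10.9 under Python 3.11.15.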

Additional observations from a re-analysis of the deposited data

Results flagged for a closer look

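By the test of the difference itself, R1881 acted unequally in SRF-silenced and in control cells on 5 of the 19 kept polyamine probe sets. The difference, silenced minus control on the log2 scale, was -0.46 for SMS 202043_s_at, -0.50 for AMD1 201197_at, 0.55 for SRM 201516_at, 0.41 for SAT1 210592_s_at and 0.38 for AZIN1 212461_at. SMS and SRM kept the call under every alternative run, including each omission of an array, with differences of -0.54 to -0.40 and 0.49 to 0.61. The other 3 lost it under at least 2 of the alternatives. The other AMD1 probe set, 201196_s_at, was at -0.35 (limma adjusted p = 0.0521) and was called under 5 alternatives. SAT1 213988_s_at was at 0.35 (limma adjusted p = 0.0590) and was called under 2, and SAT1 203455_s_at was at 0.01.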

How the results depend on the processing

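The numbers of polyamine probe sets called stayed within 1.5 times those reported under all alternatives except for the difference of R1881 effects. Omitting 1 array gave 8 to 9 for R1881 in silenced cells, 9 to 11 in control cells, 3 to 7 for the difference, 9 to 11 for silencing in R1881 and 9 to 10 in vehicle. The other alternatives gave 8 to 10, 9 to 13, 3 to 7, 9 to 12 and 8 to 10. The difference had 3 calls with the GAPDH 3-prime to 5-prime measure as a covariate. AZIN1 201772_at with R1881 in control cells was 0.16 under that covariate, against -0.34 as reported (adjusted p = 0.526), and the cause was not tested. No other called change turned its sign. The rises of ODC1, SMS and SAT1 with R1881 remained called under every alternative. With the replicate number as a block the 5 counts were 9, 9, 4, 10 and 9. Arrays of the same number in different groups did not deviate together (correlations of -0.18 to 0.19 over 18 pairs, and 5 of 12 arrays closest to their own number), so the numbers were not taken as pairs. Signals of SMOX, of 3 PAOX probe sets and of AZIN1 213747_at lay too near the background for small changes to be measured.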
